A study of Mus musculus with 16 samples.

Results

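The collagen genes of the newborn mouse testis were followed across its cell types. They were chosen by name alone, as the genes whose symbol has the form of a collagen alpha chain (Col, a type number, a, a chain number), and 44 of the 30451 genes in the table met this rule. Their UMIs were summed in 6 classes of cells: peritubular myoid cells, 2 kinds of interstitial stroma, Sertoli cells, Leydig cells and germ cells. No collagen gene was used to define a class.

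Collagens are triple helices of alpha chains. Fibrillar collagens (types I, III, V and XI among them) build the fibres of loose connective tissue, collagen VI forms beaded filaments beside them, and collagen IV forms the sheet of the basement membrane. In the testis a basement membrane lies between the Sertoli cells inside the seminiferous cord and the flat contractile myoid cells around it, and both cell types are known to build it. The smaller subfamilies include the multiplexins XV and XVIII, which sit in or near basement membranes, the FACIT collagens, which decorate fibrils, and the transmembrane collagens.

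Whole testes of mice at postnatal day 2 were dissociated with TrypLE and profiled as single cells in droplets, where the 3′ end of each mRNA is read and molecules are counted by unique molecular identifiers (UMIs). There were 2 genotypes: wild type, and a conditional Ddx5 knockout bred from Ddx5 flox/flox and Mvh-Cre mice through Ddx5 +/- males mated to Ddx5 flox/flox females. The Mvh promoter drives Cre in germ cells. The labels name 8 libraries a genotype, but the barcodes carry no library number, so each genotype entered as 1 library, no test between the genotypes was possible, and library and genotype cannot be told apart.

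The suffix of a barcode gives its genotype only through the cell numbers that the study states. Ddx5 itself was at 1152 CPM (UMIs of a gene per 1000000 UMIs of the class) in wild-type germ cells and 1736 CPM in those of the other library, which goes against the label. In the other classes it was lower in that library, at 704 and 619 CPM in myoid cells, 637 and 564 CPM in Tbata stroma, 616 and 548 CPM in Lum stroma, 936 and 882 CPM in Sertoli cells and 706 and 616 CPM in Leydig cells. The lower number of germ cells in that library, 12 of 4950 against 125 of 6329, runs the way of the label. Of the germ cell markers, Sall4 was at 252 and 32.4 CPM in germ cells, Gtsf1 at 226 and 104 CPM, Tdrd1 at 76.8 and 45.3 CPM, Pou5f1 at 23.6 and 19.4 CPM and Dnd1 at 72.2 and 82.0 CPM. The term "labelled knockout" below names that library rather than a proven genotype. In each pair of values below the wild type comes first. The cells that passed the filter (2000 genes or more, mitochondrial UMIs of 10% or less) numbered 6329 and 4950, with 82916872 and 66208479 UMIs, and 12 barcode sequences occur in both libraries. All intervals are 95% intervals for counting error only.

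The classes were gates on other genes. Myoid cells had at least 5 UMIs of Acta2 and 2 of Myh11. Tbata stroma had at least 3 UMIs of Tbata, Cyp26b1 and Smoc2 together, Lum stroma at least 3 of Lum, Dpt and Aspn together, and both at most 2 of Amh. Sertoli cells had at least 3 UMIs of Amh, Leydig cells at least 20 of Cyp11a1, Cyp17a1 and Hsd3b1, and germ cells at least 3 of the 4 genes Dazl, Ddx4, Mael and Stk31. This gave 764 and 524 myoid cells, 3208 and 2743 of Tbata stroma, 1400 and 1376 of Lum stroma, 2256 and 1635 Sertoli cells, 177 and 143 Leydig cells, and 125 and 12 germ cells. The 12 germ cells of the labelled knockout hold 463254 UMIs, so that 3 UMIs there are already 6.48 CPM.

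The gates overlap. Of 1288 myoid cells 889 also met the Tbata gate, and so did 2468 of 2776 cells of Lum stroma, 127 of 320 Leydig cells and 30 of 137 germ cells. Of the germ cells 39 met the Sertoli gate. Markers that no gate used were checked in each library: all 6 for Lum stroma, all 6 for Sertoli, all 5 for Leydig and all 5 for germ cells were highest in their own class among 8, as were 5 of 6 for myoid cells (Des was not). For Tbata stroma, the markers Pdgfra, Nr2f2 and Dlk1 were second to another class in both libraries, so that this class is broader than its name. A gate of 31 and 24 macrophages, a cell type that should lack fibrillar collagens, served as a reference for RNA that does not come from the cell itself.

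Collagen transcripts made up about 1% of all UMIs in the myoid and stromal classes and a small part of that elsewhere. The share was 1.27% and 1.23% in Lum stroma, 1.01% and 1.01% in Tbata stroma, and 0.919% and 0.900% in myoid cells. It was 0.144% and 0.172% in Sertoli cells, 0.155% and 0.139% in Leydig cells and 0.0647% and 0.0846% in germ cells. The order of Tbata stroma and myoid cells depended on shared cells: cells of the Tbata gate alone had 0.913% and 0.906%, and those of the myoid gate alone 0.989% and 0.937%. The low shares moved most with the choice of cells, and with both libraries pooled the Sertoli share went from 0.156% to 0.0825% without doublets, and the Leydig share from 0.147% to 0.0815% without cells in more than 1 class. These shares rest on 188840 and 184544 collagen UMIs in Lum stroma and on 2798 and 392 in germ cells. Macrophages, the reference, had 0.120% and 0.165% as a class, near the Sertoli share, but the median macrophage had only 0.0197% and 0.0211%.

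The median over single cells lay near the class share in myoid cells and stroma and below it in Sertoli, Leydig and germ cells. In Lum stroma the median cell had 1.24% and 1.20%, close to the class share. In Sertoli cells the median cell had only 0.0801% and 0.0794%, so that a minority of cells carried much of the sum. The median Leydig cell had 0.0824% and 0.0832%, and the median germ cell 0.0390% and 0.0397%, in both classes well under the class share and nearly equal in the 2 libraries.

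**Figure D1:**
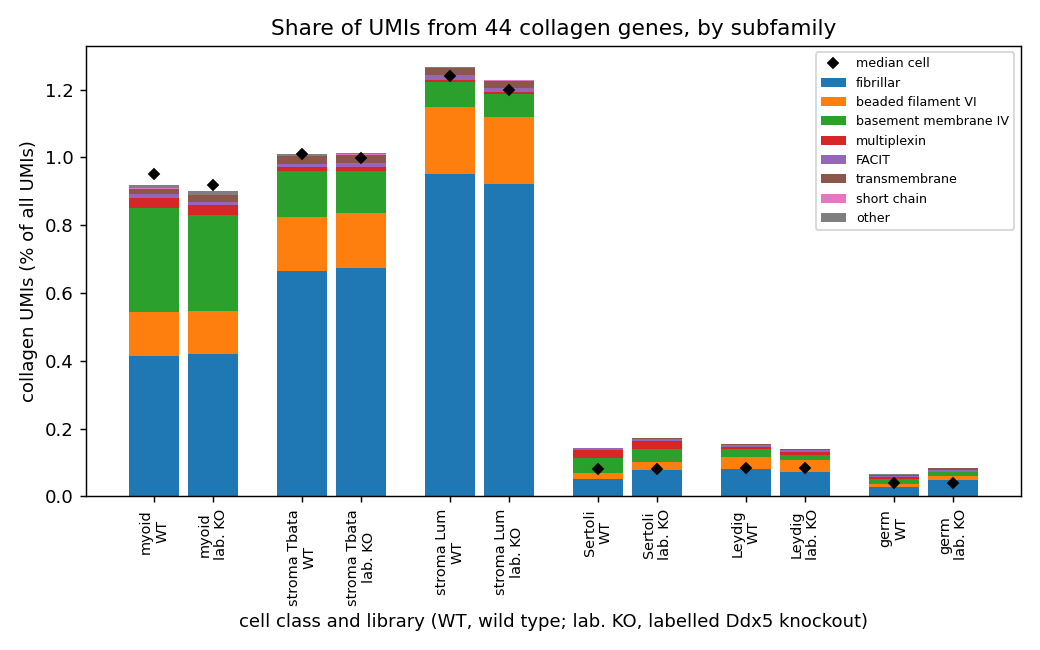
Share of all UMIs that came from the 44 collagen genes (y axis, percent), for the 6 classes in each library (x axis; WT, wild type; lab. KO, labelled Ddx5 knockout). Coloured segments are subfamilies and the diamond is the median over single cells. Fibrillar genes fill most of the bar in Lum stroma, collagen IV fills a far larger part of it in myoid cells, and in Sertoli, Leydig and germ cells the diamond lies below the top of the bar.

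The makeup differed between the classes. Fibrillar genes gave 75.2% and 74.9% of the collagen UMIs in Lum stroma, 65.8% and 66.4% in Tbata stroma and 45.2% and 46.6% in myoid cells. Collagen IV ran the other way, from 5.95% and 5.46% in Lum stroma to 33.3% and 31.4% in myoid cells. The multiplexins took 17.2% and 13.9% in Sertoli cells, against at most 3.45% in the myoid and stromal classes.

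Of the 44 genes, 20 reached 50 CPM in some class in both libraries and are described one by one. The nearest gene below that limit was Col27a1, with 48.0 CPM. All 20 had the same highest class in both libraries: 9 in Lum stroma, 8 in myoid cells, 2 in Tbata stroma, 1 in Sertoli cells and none in Leydig or germ cells. Of all 5109 genes that reached 50 CPM in this way, 13.3% were highest in Lum stroma in both libraries and 8.14% in myoid cells. The share was 0.509% for Tbata stroma, 17.2% for Sertoli cells, 18.7% for Leydig cells and 18.8% for germ cells. A UMI here is 1 captured 3′ end, so a level is not divided by gene length.

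**Figure D2:**
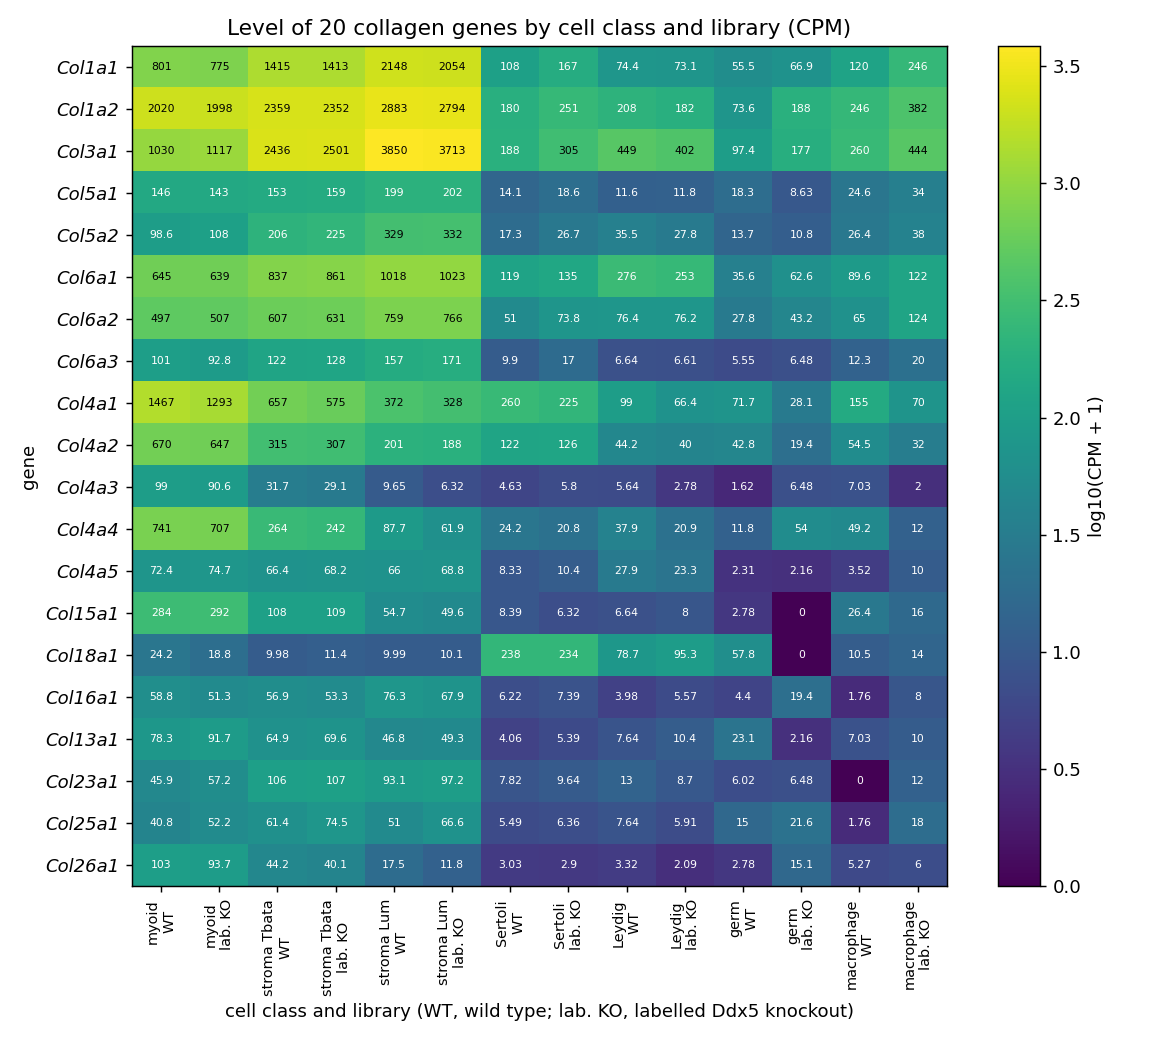
Level of the 20 described collagen genes (rows) in 6 classes and the macrophage reference, each library a column (WT, wild type; lab. KO, labelled Ddx5 knockout). Cells give CPM and colour gives log10(CPM + 1). The fibrillar and collagen VI rows are brightest in Lum stroma, the collagen IV and Col15a1 rows in myoid cells, and Col18a1 in Sertoli cells.

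The major fibrillar genes rose from myoid cells through Tbata stroma to Lum stroma. Col3a1, the single chain of collagen III (chr1:45311538-45349706, plus strand, GRCm38), was at 1029.7 and 1117 CPM in myoid cells, 2436 and 2501 CPM in Tbata stroma and 3850.4 and 3713 CPM in Lum stroma. Lum stroma was thus the highest class in both libraries, and the range of the libraries did not overlap between any of these 3 classes. Col1a1, the alpha 1 chain of collagen I, was at 801 and 775 CPM in myoid cells and 2148 and 2054 CPM in Lum stroma. Its partner chain Col1a2 differed less, with 2020.4 and 1998 CPM in myoid cells and 2883 and 2794 CPM in Lum stroma.

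The 100 bases before the annotated start of Col3a1, the collagen gene with the highest level in both whole stromal gates, are shown to compare with those of Col18a1 below. They lie at chr1:45311438-45311537 on the plus strand and are 43% G or C.
Col3a1 upstream: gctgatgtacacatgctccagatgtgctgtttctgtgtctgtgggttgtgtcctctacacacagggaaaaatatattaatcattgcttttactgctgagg
The window held no match, on either strand, to the motifs that are counted for Col18a1 below.

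The balance of the chains of collagen I changed between classes. Col1a2 UMIs outnumbered those of Col1a1 by 2.52 (interval 2.46 to 2.59) and 2.58 (2.501 to 2.66) in myoid cells, but by 1.34 (1.32 to 1.36) and 1.36 (1.34 to 1.38) in Lum stroma. The intervals of these classes lie far apart in both libraries, and Tbata stroma lay between them at 1.67 and 1.67. Col3a1 stood to Col1a1 as 1.29 and 1.44 in myoid cells and as 1.79 and 1.81 in Lum stroma.

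Collagen V, which joins collagen I in fibrils, and the main chains of collagen VI, Col6a1, Col6a2 and Col6a3, followed the same order. Col5a2 was at 98.6 and 108 CPM in myoid cells and 329 and 332 CPM in Lum stroma. Col5a1 was flatter, with 146 and 143 CPM against 199 and 202 CPM. Col6a1 was at 645 and 639 CPM in myoid cells and 1018 and 1023 CPM in Lum stroma, Col6a2 at 497 and 507 against 759 and 766 CPM, and Col6a3 at 101 and 92.8 against 157 and 171 CPM. Col16a1, a FACIT collagen, had 58.8 and 51.3 CPM in myoid cells and 76.3 and 67.9 CPM in Lum stroma.

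The collagen IV chains Col4a1 to Col4a4 were ordered the opposite way. Col4a1 was at 1467 and 1293 CPM in myoid cells, 657 and 575 CPM in Tbata stroma and 372 and 328 CPM in Lum stroma. Col4a2, which joins Col4a1 in the common collagen IV trimer, was at 670 and 647, 315 and 307, and 201 and 188 CPM. Both were higher in myoid cells than in Lum stroma, Col4a1 by 3.94-fold (3.82 to 4.07) and 3.94-fold (3.81 to 4.08) and Col4a2 by 3.33-fold (3.19 to 3.48) and 3.44-fold (3.28 to 3.60).

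Col4a3 and Col4a4, whose products occur together with that of Col4a5 in another collagen IV trimer, were more selective still. Col4a4 was at 741 and 707 CPM in myoid cells, 264 and 242 CPM in Tbata stroma and 87.7 and 61.9 CPM in Lum stroma. Col4a3 was at 99.0 and 90.6, 31.7 and 29.1, and 9.65 and 6.32 CPM. Col4a4 was thus 8.45-fold (7.97 to 8.97) and 11.4-fold (10.7 to 12.3) higher in myoid cells than in Lum stroma, and Col4a3 10.3-fold (8.60 to 12.3) and 14.3-fold (11.5 to 18.0).

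These genes lie head to head, Col4a4 at chr1:82448423-82586849 on the minus strand and Col4a3 at chr1:82586921-82722059 on the plus strand (GRCm38, GENCODE M21). The 71 bases between their annotated starts, chr1:82586850-82586920, are shown on the plus strand because both genes are read outward from them.
Col4a4 to Col4a3 spacer: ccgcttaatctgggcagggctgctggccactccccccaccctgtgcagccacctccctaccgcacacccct
This stretch is 69.0% G or C and likewise held no match to those motifs. UMIs are captured 3′ ends, so the output of this start region was not measured. Col4a4 had more UMIs than Col4a3 in all 6 classes, by 7.48 and 7.81 in myoid cells, 8.33 and 8.32 in Tbata stroma, and 9.08 and 9.79 in Lum stroma. The ratio was lower in Sertoli cells, at 5.22 (4.43 to 6.19) and 3.58 (3.01 to 4.27), and lower again in Sertoli cells nearly free of stromal gate genes, where Col4a4 had 168 and 167 UMIs and Col4a3 83 and 86.

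The other pairs of collagen IV genes are also head to head. Col4a1 and Col4a2 overlap by 22 bases at their starts on chromosome 8, and Col4a2 gave 0.456 and 0.5003 UMIs for each UMI of Col4a1 in myoid cells and 0.540 and 0.574 in Lum stroma. Col4a6 and Col4a5, with 1308 bases between them on the X chromosome, were level across the same classes. Col4a5 was level over the 3 classes, with 72.4 and 74.7 CPM in myoid cells, 66.4 and 68.2 CPM in Tbata stroma and 66.0 and 68.8 CPM in Lum stroma, while Col4a6 stayed between 13.2 and 17.7 CPM. Col4a5 therefore did not share the myoid bias of Col4a3 and Col4a4.

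**Figure D3:**
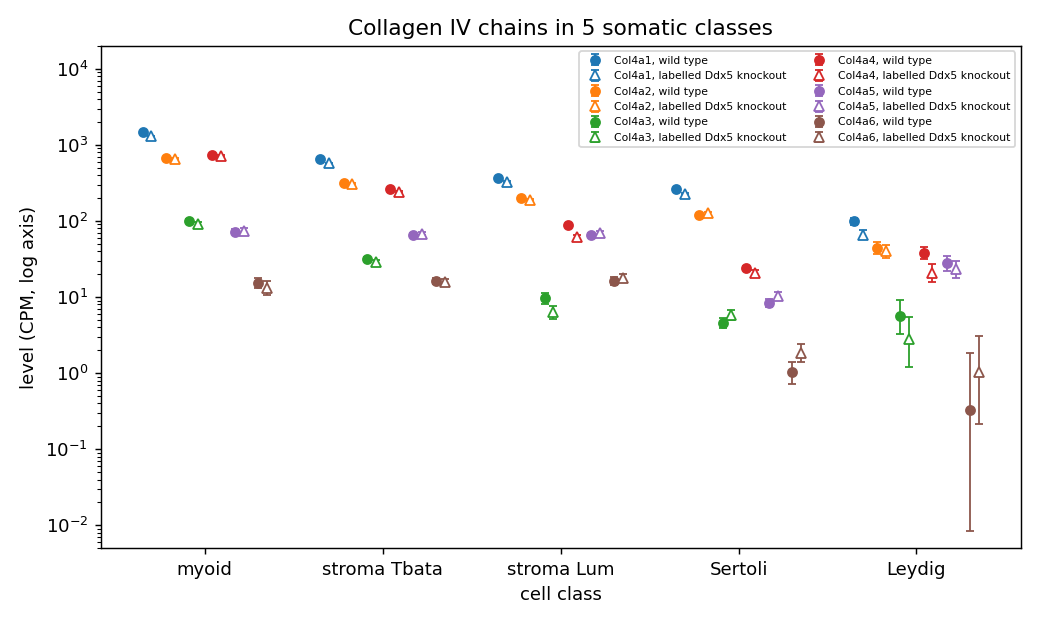
Level of the 6 collagen IV chains (colours) in 5 somatic classes, in CPM on a log axis, wild type as filled circles and the labelled knockout as open triangles. Bars are 95% Poisson intervals of the summed UMIs. Col4a1 to Col4a4 fall from myoid cells to Lum stroma, Col4a5 and Col4a6 are level over the 3 classes, and in Sertoli cells Col4a1 and Col4a2 stand above the other chains.

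Other myoid genes were Col15a1, Col26a1 and Col13a1. Col15a1, the gene of the basement membrane multiplexin XV, was at 284 and 292 CPM in myoid cells and 54.7 and 49.6 CPM in Lum stroma. Col26a1 was at 103 and 93.7 CPM against 17.5 and 11.8 CPM, with 44.2 and 40.1 CPM in Tbata stroma. Col13a1, which encodes a transmembrane collagen found at cell contacts, differed less, with 78.3 and 91.7 CPM against 46.8 and 49.3 CPM, and 64.9 and 69.6 CPM in Tbata stroma. In cells of a single gate it was at 77.0 and 81.3 CPM in myoid cells, 76.7 and 87.2 CPM in Tbata stroma and 37.8 and 49.4 CPM in Lum stroma, and the counting intervals of the myoid and Tbata values overlap there.

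Between myoid cells and Lum stroma, 34 of the 44 genes had at least 20 UMIs in each library. Of these, 7 were at least 2-fold higher in myoid cells in both libraries (Col4a1, Col4a2, Col4a3, Col4a4, Col14a1, Col15a1 and Col26a1), where 5.49% of all genes tested were. In Lum stroma 7 were higher (Col1a1, Col3a1, Col5a2, Col5a3, Col9a1, Col12a1 and Col27a1), where 6.24% of all genes were. Col9a1 rests on 7 UMIs in myoid cells of each library, and its interval in the labelled knockout reaches from 0.167 to 1.03. The median log2 ratio of the collagen genes tested was -0.35 and -0.41, beside -0.03 and -0.02 over all genes.

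Tbata and Lum stroma were nearer to each other, and they share most of the Lum cells. Of 36 genes tested, Col4a3, Col4a4 and Col26a1 were at least 2-fold higher in Tbata stroma (2.25% of all genes tested) and Col12a1 in Lum stroma (0.154%). With cells of more than 1 class left out these counts became 6 and 5. Col12a1 was at 16.5 and 13.9 CPM in Tbata stroma and 36.9 and 29.2 CPM in Lum stroma.

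To see the classes apart, cells were also sorted by which of the 3 gates they met, a split made after the values were seen. Cells of the Tbata gate alone (1439 and 1099) carried the most Col23a1 and Col25a1, which encode transmembrane collagens. Col23a1 was at 147 and 145 CPM there, 70.0 and 61.6 CPM in cells of the Lum gate alone, and 24.4 and 29.1 CPM in cells of the myoid gate alone. Col25a1 was at 79.3 and 94.6 CPM, against 24.4 and 34.0 and against 24.0 and 30.0 CPM.

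In the same split Col12a1 went from 5.77 and 3.16 CPM in the Tbata gate alone to 49.5 and 45.4 CPM in the Lum gate alone. Col4a4 went from 932 and 916 CPM in the myoid gate alone, through 257 and 277 CPM, to 51.9 and 18.6 CPM in the Lum gate alone. Cells that met both the Tbata and the Lum gate had 70.4 and 46.1 CPM, near the Lum end. Col3a1 rose along the same path from 902 and 803 CPM to 1972 and 1918 CPM and then to 3980.3 and 4049.9 CPM.

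Sertoli cells had few collagen transcripts but a distinct set of them. Col18a1, which encodes the multiplexin XVIII from which endostatin is cut, was at 238 and 234 CPM in Sertoli cells, 78.7 and 95.3 CPM in Leydig cells, 24.2 and 18.8 CPM in myoid cells and 9.99 and 10.1 CPM in Lum stroma. It was 9.84-fold (8.66 to 11.2) and 12.4-fold (10.5 to 14.9) higher in Sertoli than in myoid cells. Cells that met the myoid gate and none of the other gates had 5.80 and 9.42 CPM (14 and 11 UMIs), below the whole myoid class. The 10.5 and 14.0 CPM of macrophages were at the level of stroma.

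The 100 bases before its RefSeq start, chr10:77166531-77166630 on the minus strand (GRCm38.p6), are shown with the capitals marking matches to GGGCGG, here in their reverse complement.
Col18a1 upstream: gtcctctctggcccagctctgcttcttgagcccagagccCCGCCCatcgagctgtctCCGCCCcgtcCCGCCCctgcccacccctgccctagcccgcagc
The window holds 3 matches and is 73% G or C. A match to GGGCGG on either strand was in the 100 upstream bases of 25.2% of 27025 genes with a promoter in the table and of 18 of the 35 collagen genes that matched it. CCAAT was in 19.6% and in 3 of 35, and TATAAA in 5.95% and in 2 of 35. These counts describe letters and not binding.

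Col9a2 and Col9a3, chains of the FACIT collagen IX, were under the limit for description and are named after their values were seen. Col9a2 was at 26.7 and 33.1 CPM in Sertoli cells, its highest class, and 6.18 and 8.99 CPM in myoid cells. In between were Tbata stroma, with 9.32 and 11.1 CPM, and Lum stroma, with 13.9 and 15.8 CPM. Col9a3 was at 8.82 and 7.22 CPM in Sertoli cells and at most 1.89 CPM in the myoid and stromal classes. Col9a1, the other chain of collagen IX, was at 0.0812 and 0.207 CPM in Sertoli cells.

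Of the 34 genes tested between Sertoli and myoid cells, Col9a2, Col9a3 and Col18a1 were at least 2-fold higher in Sertoli cells in both libraries (13.9% of all genes tested) and the other 31 in myoid cells (15.1%). The median log2 ratio of the collagen genes was -2.94 and -2.60, beside 0.11 and 0.09 over all genes. Col4a1 was at 260 and 225 CPM in Sertoli cells, 0.177-fold and 0.174-fold its myoid level.

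The fibrillar genes of the Sertoli class sat in a minority of its cells. After thinning every cell to 5000 UMIs, 68.4% (66.4 to 70.3) and 64.4% (62.1 to 66.8) of Sertoli cells had a UMI of Col4a1 and 67.8% and 64.3% one of Col18a1. Only 15.7% and 21.3% had one of Col3a1, against 20% and 37.5% of macrophages. Unthinned, 28.5% and 34.4% of Sertoli cells had a Col3a1 UMI and 38.7% and 70.8% of macrophages, with median depths of 13711 and 15847 UMIs against 17546 and 20409. The Col3a1 share of Sertoli cells was therefore at or below the reference, and that of Col18a1 far above the 10.0% and 8.33% of macrophages.

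Sertoli cells with at most 1 UMI in all of the 8 genes of the myoid and stromal gates were then taken alone, an alternative chosen after the data were seen. They numbered 1774 and 1223, or 78.6% and 74.8% of the class. In them Col3a1 was at 19.3 and 20.3 CPM instead of 188 and 305 CPM. Col1a1 was at 8.57 and 8.02 CPM instead of 108 and 167 CPM.

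Col4a1, Col4a2, Col18a1 and Col9a2 stayed near their class level in these cells. Col4a1 was at 233 and 199 CPM, Col4a2 at 108 and 111 CPM, Col18a1 at 257 and 251 CPM, and Col9a2 at 28.7 and 34.5 CPM. Col6a1 was at 68.3 and 63.2 CPM instead of 119 and 135 CPM, and Col6a2 at 12.8 and 13.1 CPM instead of 51.0 and 73.8 CPM. Macrophages picked the same way, 25 and 18 cells, had 71.8 and 38.1 CPM of Col3a1 and 34.7 and 6.35 CPM of Col4a1. The collagen share of these Sertoli cells was 0.0794% and 0.0761%, near the median cell of the class.

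**Figure D4:**
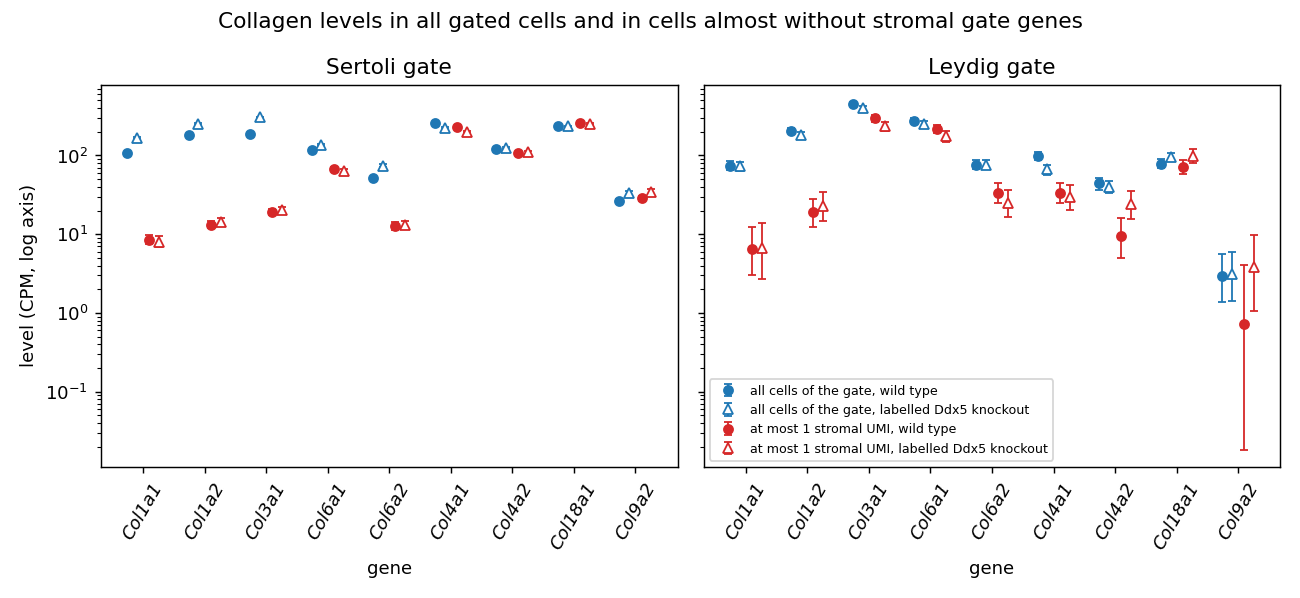
Level of 9 collagen genes in CPM on a log axis, in all cells of the Sertoli gate (left) and the Leydig gate (right) in blue, and in red in those with at most 1 UMI of the 8 genes of the myoid and stromal gates. Filled circles are wild type, open triangles the labelled knockout, bars 95% Poisson intervals. In Sertoli cells the red points of the collagen I and III genes lie far below the blue ones, while those of Col4a1, Col4a2, Col18a1 and Col9a2 lie close to them. In Leydig cells Col3a1 and Col6a1 stay high.

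Leydig cells, the steroid-producing cells of the interstitium, had less of most collagens than the stroma around them. Of 34 genes tested against Lum stroma, 28 were at least 2-fold lower (18.1% of all genes tested) and Col14a1 and Col18a1 were higher (12.7%). Col3a1 and Col6a1 stood out among the rest. Col3a1 was at 449 and 402 CPM and Col6a1 at 276 and 253 CPM in Leydig cells, where Col1a1 was at 74.4 and 73.1 CPM and Col6a2 at 76.4 and 76.2 CPM.

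The balance of these chains was shifted further than in any of the other 5 classes. Col3a1 UMIs outnumbered those of Col1a1 by 6.04 (5.24 to 6.98) and 5.50 (4.74 to 6.40) in Leydig cells, against 1.70 and 1.77 over all cells. Col6a1 outnumbered Col6a2 by 3.61 (3.12 to 4.20) and 3.32 (2.85 to 3.87), against 1.45 and 1.40 over all cells. In macrophages the first ratio was 2.18 and 1.80 and the second 1.38 and 0.984.

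In the 91 and 60 Leydig cells with at most 1 UMI of the stromal gate genes, Col3a1 was at 295 (267 to 325) and 235 (207 to 267) CPM and Col6a1 at 219 and 175 CPM. Col1a1 was at 6.57 and 6.75 CPM, from 9 and 7 UMIs, so that Col3a1 exceeded it 44.9-fold and 34.9-fold. Col5a2 was at 22.6 and 17.4 CPM in these cells and Col14a1, a FACIT collagen, at 20.4 and 23.1 CPM. After thinning, 66.1% (58.6 to 73.0) and 70.4% (62.2 to 77.8) of all Leydig cells had a UMI of Col3a1, while 10.7% and 11.3% had one of Col1a1.

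Germ cells had the lowest collagen share of the 6 classes. Of 32 genes tested against Sertoli cells, Col6a4, Col11a1, Col17a1 and Col25a1 were at least 2-fold higher in germ cells (15.3% of all genes tested), and Col4a1, Col4a2, Col6a1, Col9a2 and Col18a1 lower (9.58%). The germ side of the first 4 rests on 1 to 10 UMIs in the labelled knockout, and the intervals of Col6a4 and Col11a1 there include 1. Col2a1, the cartilage collagen, had 18 and 11 UMIs in germ cells, from 16 of 125 and 8 of 12 cells, and 9 and 3 UMIs in the whole Sertoli class. Its level of 4.16 and 23.7 CPM was the highest among the 6 classes in both libraries.

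Col22a1, another FACIT collagen, was likewise highest in germ cells, with 32 and 8 UMIs from 27 and 5 cells. Both genes were named after their values were seen. Col18a1 was at 57.8 CPM in wild-type germ cells and had 0 UMIs in the 12 others. In the 42 wild-type germ cells with at most 1 UMI of the stromal gate genes it was at 44.6 CPM, and Col3a1 fell from 97.4 to 19.8 CPM. The stromal gate genes include no Sertoli gene, and 39 of all 137 germ cells met the Sertoli gate. This choice of cells therefore cannot show whether the Col18a1 UMIs came from germ cells.

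The other 24 genes were low throughout. Their highest level reached in both libraries ranged from 0.0553 to 48.0 CPM. Lum stroma was the highest class in both libraries for 8 of them (among them Col5a3, Col12a1 and Col27a1), myoid cells for 3, Sertoli cells for 2 and germ cells for 4, and 7 had different highest classes in the libraries. The share over all genes at such low levels was not counted, so these counts are no statement about collagens. Col19a1 had 2 UMIs in all cells, Col10a1, the collagen of hypertrophic cartilage, had 10 and Col28a1 had 11. Col11a1 reached 27.6 and 30.2 CPM in myoid cells, and Col14a1 was at 30.6 and 24.0 CPM there.

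Between the libraries, collagen levels in the myoid and stromal classes were close. In Tbata stroma 0 of 34 genes with at least 50 UMIs differed by at least 1.5-fold with an interval excluding 1, where 5.74% of all genes tested did. In myoid cells 2 of 32 did (Col17a1 higher and Col6a6 lower in the labelled knockout), beside 3.29%, and in Lum stroma 2 of 34 (Col4a3 and Col14a1, lower), beside 3.58%. Col3a1 was 1.09-fold, 1.03-fold and 0.964-fold its wild-type level in myoid cells, Tbata stroma and Lum stroma, and Col1a2 0.989-fold, 0.997-fold and 0.969-fold.

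Col4a1 was lower in the labelled knockout in all 6 classes, though not in a small gate of 21 and 14 endothelial cells (476 and 634 CPM). In the labelled knockout it was at 0.881-fold (0.858 to 0.905) its wild-type level in myoid cells, 0.875-fold (0.858 to 0.892) in Tbata stroma, 0.882-fold (0.848 to 0.916) in Lum stroma and 0.867-fold (0.840 to 0.895) in Sertoli cells. It was at 0.671-fold (0.557 to 0.808) in Leydig cells. In germ cells it was at 0.391-fold (0.206 to 0.679), from 13 UMIs in the labelled knockout, where the median log2 ratio of all genes was -0.82. The gates share cells, so the classes are not separate readings. Col4a2 was at 0.966-fold, 0.977-fold, 0.937-fold and 1.03-fold in the first 4 classes. None of the first 4 classes reached the limit of 1.5-fold for Col4a1, and the median log2 ratio of all genes was between -0.02 and -0.01 in them.

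Sertoli cells had more such genes than the myoid and stromal classes. Of 32 genes 8 were at least 1.5-fold higher in the labelled knockout (Col1a1, Col3a1, Col4a6, Col5a2, Col5a3, Col6a3, Col6a6 and Col27a1) and none was lower, where 6.49% of all genes tested differed either way. Col3a1 went from 188 to 305 CPM (1.63-fold, 1.58 to 1.68) and Col1a1 from 108 to 167 CPM (1.54-fold, 1.48 to 1.61). The median log2 ratio of the collagen genes was 0.31, beside -0.02 over all genes.

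The fibrillar genes moved in the same direction in the macrophage reference, where Col3a1 went from 260 to 444 CPM and Col1a1 from 119.5 to 246 CPM. Of the 55 macrophages 8 also met the Tbata gate and 4 the Lum gate. In macrophages with at most 1 UMI of the stromal gate genes the direction was the opposite, with Col3a1 at 71.8 and 38.1 CPM and Col1a1 at 12.4 and 6.35 CPM (5 and 2 UMIs). Scrublet, which scores likely doublets, called 9.57% and 13.6% of the Sertoli cells. It called 7.34% and 15.4% of the Leydig cells, where Col3a1 was 0.895-fold and Col1a1 0.982-fold their wild-type level. In the Sertoli cells with at most 1 UMI of the stromal gate genes, 19 collagen genes had enough UMIs and 0 differed by that rule (3.91% of all genes did), with a median log2 ratio of 0.03. Of the 8 genes, Col4a6, Col5a3 and Col6a3 had too few UMIs there, and Col6a6 kept nearly its difference, with 2.97 and 4.42 CPM against 3.30 and 5.04 CPM in the whole class. With the doublets left out of the whole class, 5 differed and the median was 0.08. Picking Sertoli cells by the stromal gate genes lowered Col3a1 itself in both libraries, to 19.3 and 20.3 CPM. The part of doublets and of free RNA in the difference was not tested.

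Leydig and germ cells gave fewer genes with enough UMIs. In Leydig cells 1 of 17 differed (Col4a4, lower), beside 4.15% of all genes tested. In germ cells 8 of 13 differed, 4 each way, but so did 53.7% of all genes tested, and with cells of more than 1 class left out 0 did. The germ count is therefore no statement about collagens.

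**Figure D5:**
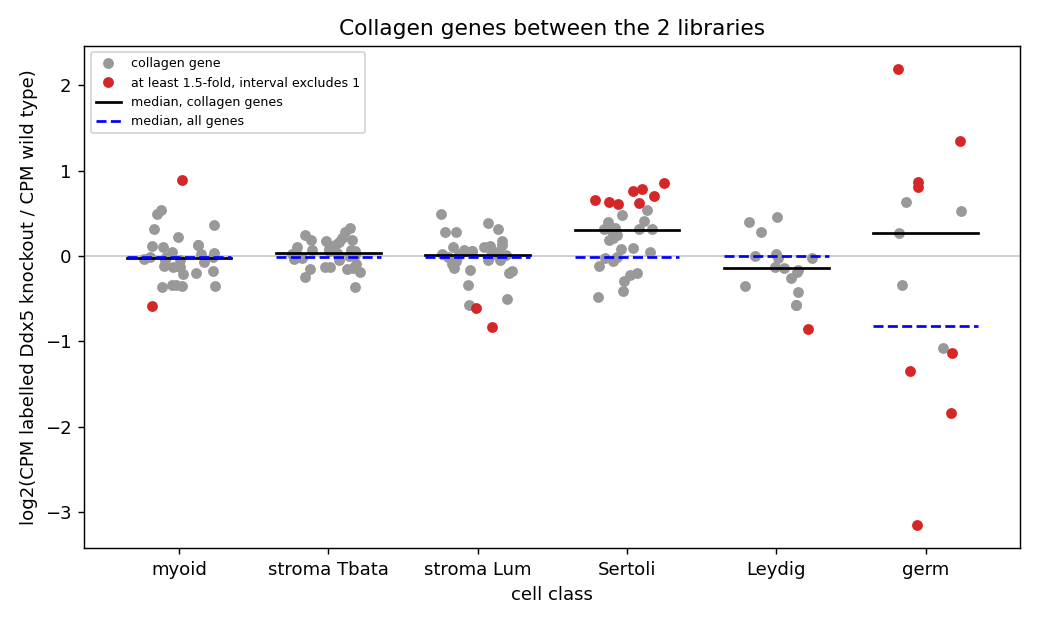
Log2 ratio of the level in the labelled knockout over wild type (y axis) for each collagen gene with at least 50 UMIs in a class (x axis), with counts under 3 UMIs set to 3. Red points differ by at least 1.5-fold with a 95% interval excluding 1, black lines are medians over the collagen genes and dashed blue lines medians over all genes. The 8 red points of Sertoli cells lie above 0, and Tbata stroma has none.

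The machinery of collagen was followed in 51 genes of synthesis, processing, breakdown and reception, of which 19 reached 100 CPM in some class in both libraries. Of these, 14 were highest in Lum stroma in both libraries, 2 in myoid cells, 2 in Leydig cells and 1 in Sertoli cells. Of all 2772 genes that reached the same level, 13.8% were highest in Lum stroma in both libraries, 9.27% in myoid cells, 19.8% in Leydig cells and 17.9% in Sertoli cells. Serpinh1, the collagen chaperone HSP47, was at 1125 and 1103 CPM in Lum stroma and 1076 and 1033 CPM in myoid cells, against 349 and 393 CPM in Sertoli cells. Ppib, a prolyl isomerase of the same pathway, was at 1039 and 1069 CPM in Lum stroma and still 689 and 699.9 CPM in Sertoli cells.

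Of the 15 genes listed for hydroxylation of the chains, 8 were highest in Lum stroma in both libraries, 3 in Sertoli cells, 2 in myoid cells and 1 in Leydig cells. Only 7 of the 15 reached 100 CPM, so the shares over all genes given above do not apply. No share was counted for the whole list, and no result is read from these numbers. P4hb, a subunit of prolyl 4-hydroxylase, was at 334 and 332 CPM in Lum stroma and 303 and 299 CPM in myoid cells. P3h3 was at 166 and 167 CPM in Lum stroma and 115.5 and 119.6 CPM in myoid cells, and its relative Crtap at 173 and 181 CPM and at 129 and 132 CPM. Without cells of more than 1 class the highest class changed for Serpinh1, Ppib, P4hb and Crtap. With ribosomal protein, mitochondrial and collagen genes left out of the denominator it changed for Serpinh1, Ppib and Timp3.

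Loxl1 and Mmp2 differed in opposite directions between Lum stroma and myoid cells. Loxl1, a lysyl oxidase that crosslinks fibres, was at 223 and 208 CPM in Lum stroma and 61.8 and 58.7 CPM in myoid cells. Mmp2, a gelatinase that also cleaves collagen IV, was at 194 and 205 CPM in myoid cells and 107 and 123 CPM in Lum stroma. Its activator Mmp14 was at 233 and 229.6 CPM in Lum stroma and 162 and 157 CPM in myoid cells. Timp2, an inhibitor of both, was at 416 and 417 CPM and at 147 and 148 CPM. Itgb1, the beta chain of the collagen-binding integrins, was at 639 and 613 CPM in myoid cells and 435 and 439.9 CPM in Lum stroma.

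Pcolce, which enhances the removal of the C-terminal propeptide of fibrillar procollagens, was highest in Leydig cells. It was at 913 and 787 CPM in Leydig cells and 179 and 205 CPM in Lum stroma, although Leydig cells had little Col1a1. Timp3, a matrix-bound protease inhibitor, was at 275 and 271 CPM in Leydig cells and 259 and 267 CPM in myoid cells, too close for an order of these classes.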

How the data were processed

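UMI counts per gene and barcode had been made by the authors with Cell Ranger 3.1.0 on GRCm38, per the submitters' processing notes, on a reference that also held GFP and CRE, and were deposited as 1 table without normalization. Its 12186 barcodes end in suffix 3 or 4. Suffix 4 holds 5423 barcodes, fewer than the wild-type cells the paper states, and was taken as the labelled knockout. Strand use in counting is not given in the sources used here, so genes that overlap at their 3′ ends may share UMIs. Col4a1 and Col4a2 overlap only at their starts, far from the 3′ ends that are read.

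UMIs were summed per class and library and given as CPM. A cell that met several gates counted in each, and doublets were kept. Intervals are exact Poisson for levels, exact conditional binomial for ratios and Clopper-Pearson for shares, at 95%. Counts under 3 UMIs were set to 3 in folds. Cells are not replicates, and with 1 library a genotype no test was possible. The rules that count genes were run on simulated Poisson counts with planted changes larger than the limits used. These counts held no spread between cells or libraries, no doublets and no free RNA, so error in the real data was not measured. Described collagens reached 50 CPM in a class in both libraries, and the 12 highest partner genes at or over 100 CPM could be named. Members and lists were chosen with earlier results of these data known. Python 3.11.15, NumPy 2.4.6, SciPy 1.17.1, scanpy 1.11.5 (Scrublet) and GENCODE M21 were used, and upstream bases came from RefSeq windows on GRCm38.p6, which matched 35 of 44 collagen genes.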

Additional observations from a re-analysis of the deposited data

Results flagged for a closer look

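Collagen UMIs were also found in cells that no comparison used. The 309 wild-type and 246 labelled knockout cells that met none of the 6 gates had a collagen share of 0.669% and 0.627% of their UMIs, with median depths of 8450 and 8359 UMIs. The barcodes that failed the filter on genes or mitochondrial UMIs, 434 and 473 of them, had 0.478% and 0.373%. These shares lie between those of the Sertoli and the myoid class.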

How the results depend on the processing

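Each genotype is 1 library, germ cells number only 12 in the labelled knockout, and no replicate error is known, so intervals cover counting error only. No paired analysis was possible because the labelled library numbers are not carried by the barcodes. The highest class of all 20 described collagen genes was the same under every alternative on cells, denominators and means, except for Col13a1 when cells in more than 1 class were left out.

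With both libraries pooled, the collagen share as reported was 0.911% in myoid cells, 1.01% in Tbata stroma, 1.25% in Lum stroma, 0.156% in Sertoli, 0.147% in Leydig and 0.0667% in germ cells. In that order it was 0.972%, 0.910%, 1.28%, 0.150%, 0.0815% and 0.0341% without cells in more than 1 class, which placed Tbata stroma below myoid cells. It was 0.946%, 1.02%, 1.26%, 0.0825%, 0.124% and 0.0526% without doublets called by Scrublet, and 0.928%, 1.02%, 1.32%, 0.153%, 0.137% and 0.0627% with the UMI thresholds of the gates doubled. With ribosomal protein, mitochondrial and collagen genes out of the denominator it was 1.24%, 1.35%, 1.63%, 0.202%, 0.189% and 0.0876%, and as the mean of single cells 0.947%, 1.06%, 1.29%, 0.133%, 0.141% and 0.0853%. Without the filter on cells Leydig cells had 0.141%. In cells with at most 1 UMI of the stromal gate genes, chosen after the data were seen, Sertoli, Leydig and germ cells had 0.0780%, 0.0778% and 0.0375%.

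Counts between classes moved as follows. At 3-fold, 4 genes were higher in Lum stroma than in myoid cells, 0 higher in Lum than in Tbata stroma and 3 higher in Sertoli than in germ cells. Without cells in more than 1 class, 6 and 5 were higher in Tbata and in Lum stroma, 1 in Leydig cells and 9 in Sertoli over germ cells. With no minimum of UMIs, 2 were higher in Lum than in Tbata stroma, 8 in Leydig and 15 in germ cells, and with at least 50 UMIs 2 in germ cells.

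Counts between libraries moved too. Without cells in more than 1 class they were 1 in myoid cells, 1 in Tbata stroma, 1 in Lum stroma and 0 in germ cells, and without doublets 1 in myoid cells, 1 in Lum stroma, 5 in Sertoli and 2 in Leydig cells. At 2-fold they were 0 in myoid cells, 0 in Lum stroma, 0 in Sertoli and 0 in Leydig cells. With at least 200 UMIs they were 1 in myoid, 0 in Leydig and 4 in germ cells. The other denominator gave 1 in myoid cells, doubled thresholds 2 in Leydig cells, and the mean of single cells 5 in Sertoli and 5 in germ cells. In cells with at most 1 stromal UMI they were 0 in Sertoli, 0 in Leydig and 0 in germ cells. Except where fewer cells or genes entered, the cause was not tested.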

Other observations

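A gate of endothelial cells (at least 3 of Pecam1, Cdh5, Esam and Egfl7) held 21 wild-type cells and 14 of the labelled knockout. Their collagen share was 0.319% and 0.456%. Col4a1 was at 476 and 634 CPM, Col4a2 at 231 and 442 CPM and Col18a1 at 142 and 173 CPM in these cells. Scrublet called 28.6% and 42.9% of them, and only 2 cells in each library had at most 1 UMI of the stromal gate genes.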
